A study of Mus musculus with 24 samples.

Results

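The genes described here are 8 genes of the podocyte and its slit diaphragm, *Nphs1*, *Cd2ap*, *Magi2*, *Podxl*, *Ptpro*, *Clic5*, *Synpo* and *Wt1*, in the mouse kidney after myocardial infarction (MI). They were chosen by name, and all 8 were found among the 56941 genes of the count table and were among the 12780 genes that had enough counts to be tested. Kidneys came from male C57BL/6J wild-type mice that were 8 to 11 weeks old at surgery. MI was induced by permanent ligation of the left anterior descending artery (LAD), and kidneys were collected 5d or 28d later. Sham-operated mice underwent surgery without ligation, and their kidneys were collected at 5d and served as controls for both times. In the comparison of 28d post-MI with sham, the ligation and the time since surgery therefore cannot be told apart. RNA of kidney tissue, each sample from 1 mouse, was sequenced by a method that counts molecules at the 3′ ends of mRNA. The methods do not say whether a whole kidney or a piece was used.

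Of 24 labelled kidneys, 22 could be assigned to their columns, of which 8 were sham, 8 were from 5d and 6 from 28d post-MI. Total counts per kidney ranged from 2280618 to 3786275, and no difference passed the test for 5d post-MI (exact permutation test, two-sided, p = 0.62) or 28d post-MI (exact permutation p = 0.2) against sham. Each of the 8 genes had at least 9 counts in every kidney. Levels are given as counts per 1000000 counts (CPM) after TMM scaling, and log2 fold changes are from edgeR's quasi-likelihood test with Benjamini-Hochberg adjustment over all 12780 genes. Values at the 3′ end are not divided by gene length, so each gene is compared only with itself between kidneys.

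Podocytes wrap the capillaries of the glomerulus with interlocking foot processes. Between these, the slit diaphragm, built on the adhesion protein nephrin, forms the last layer of the filter that keeps plasma protein out of the urine. Its proteins are tied through adaptors to the actin skeleton of the foot process, the free surface carries a strongly charged coat, and the transcription factor WT1 maintains the cell's program. Loss of these proteins, by mutation or in disease, goes with flattened foot processes and proteinuria. Podocytes are a small share of the cells of a whole kidney, and in bulk RNA fewer podocytes and less RNA per podocyte cannot be told apart.

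Because the method reads 3′ ends, the counted fragments come from the last bases of each transcript. The last 30 bases of the most distal annotated coding transcript are shown, 5′ to 3′ on the coding strand, for *Nphs1*, the backbone gene of the slit diaphragm, for *Podxl*, which had the most counts of the 8 genes, and for *Wt1* and *Cd2ap*, which had the lowest p-values at 5d post-MI. Capitals mark a sequence match to a polyadenylation signal, AATAAA or ATTAAA, which was searched on the coding strand only. The match lies 3 bases from the annotated end in *Nphs1*, against 20 in *Podxl*, 18 in *Wt1* and 16 in *Cd2ap*. Whether these matches are used was not tested.
Nphs1: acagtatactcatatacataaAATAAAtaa
Podxl: tgtcAATAAAaatgcttttgtgtaagctgg
Wt1: ctgtcaATTAAAgtctattcaaaaggaaaa
Cd2ap: aaattaatAATAAAagagaactgtgctgcc
In GRCm38 with the GENCODE M21 annotation these stretches lie in the 3′ untranslated region at chr7:30487194-30487223 for *Nphs1* (plus strand), chr6:31519488-31519517 for *Podxl* (minus strand), chr2:105173587-105173616 for *Wt1* (plus strand) and chr17:42792951-42792980 for *Cd2ap* (minus strand). *Podxl* has 1 annotated end among its coding transcripts, *Nphs1* and *Cd2ap* have 2 each, and *Wt1* has 6, and the counts of a gene do not separate its ends.

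No member passed the threshold of an adjusted p of 0.05 in any of the 3 comparisons. Over all tested genes, 0.0704% passed between 5d post-MI and sham, 0.0235% between 28d post-MI and sham, and 0.415% between the 2 times post-MI. At an unadjusted p under 0.05, 7.9% of all genes passed at 5d against sham (3.92% higher and 3.97% lower), and 2 of the 8 members did so, *Wt1* higher and *Cd2ap* lower. No member passed this limit at 28d against sham, where 8.68% of all genes did so (4.45% higher and 4.23% lower), or between the times, where 9.05% did so (5.03% higher and 4.01% lower). The groups overlapped for every member in every comparison, and 0.0548%, 0.258% and 0.344% of all genes had groups that did not overlap. DESeq2 and limma's voom called no member either.

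**Figure D1:**
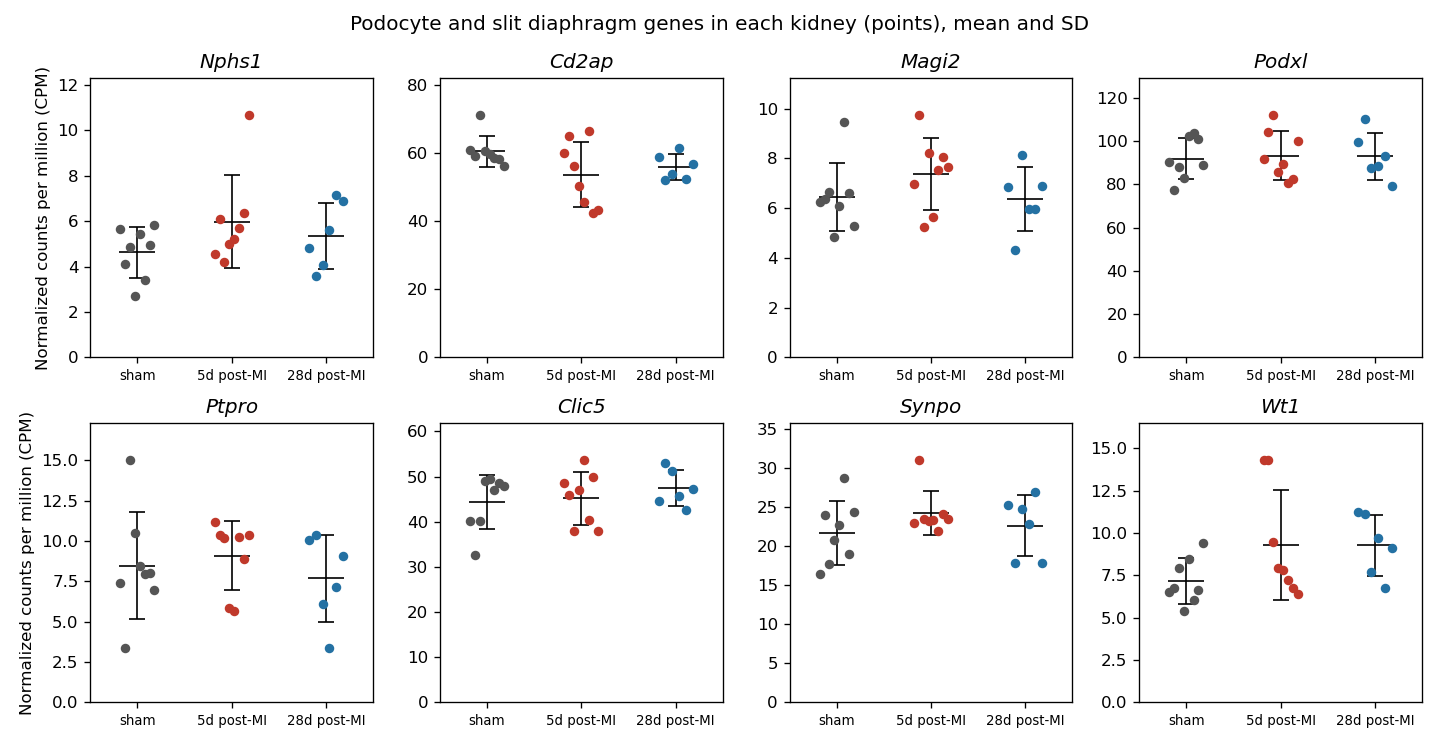
CPM of each member (y axis, from 0, with its own scale in each panel) in 8 sham kidneys and in kidneys at 5d (n = 8) and 28d (n = 6) post-MI. Each point is 1 kidney, and the lines show the mean and SD. The 3 groups overlap in every panel, and single high kidneys stand out for *Nphs1* and *Synpo* at 5d post-MI.

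Of the 3 slit diaphragm genes, *Nphs1* and *Magi2* had a positive and *Cd2ap* a negative log2 fold change at 5d, and none passed the test. *Nphs1* (ENSMUSG00000006649, chr7:30458315-30487223, plus strand) encodes nephrin, the adhesion molecule that spans the slit and signals to the actin skeleton. Its lowest, median and highest levels were 2.70, 4.91 and 5.82 CPM in sham kidneys, 4.20, 5.46 and 10.7 CPM at 5d post-MI, and 3.58, 5.22 and 7.15 CPM at 28d post-MI. Of the kidneys post-MI, 3 of 8 at 5d and 2 of 6 at 28d lay above every sham kidney, and the rest lay within the sham range. The log2 fold change against sham was 0.37 at 5d (SE 0.21, 95% interval −0.05 to 0.80, edgeR adjusted p = 0.690) and 0.21 at 28d (adjusted p = 0.867). The value at 5d rested in part on 1 kidney, replicate 9, with 10.7 CPM, without which it was 0.19 (adjusted p = 0.897). Only 9 to 35 counts of *Nphs1* were available per kidney, and its exons share 183 bases with a processed pseudogene on the opposite strand, *Rps12-ps4* (7543 counts over all kidneys), and 0 of these bases lie in the last exon of *Nphs1*. Whether the counting used the strand is not given in the sources used here.

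*Cd2ap* (ENSMUSG00000061665, chr17:42792951-42876665, minus strand) encodes an adaptor that links nephrin to actin, and it is also expressed outside podocytes. Its lowest, median and highest levels were 56.3, 59.3 and 71.2 CPM in sham kidneys, 42.3, 53.1 and 66.5 CPM at 5d post-MI and 51.9, 55.2 and 61.3 CPM at 28d post-MI. Of the kidneys at 5d post-MI, 5 of 8 lay below every sham kidney, and at 28d post-MI 3 of 6 did so, with the other kidneys inside the sham range. The log2 fold change at 5d was −0.16 (SE 0.08, unadjusted p = 0.0493), which did not pass after Benjamini-Hochberg adjustment of edgeR's p-values (adjusted p = 0.631). At 28d it was −0.11 (adjusted p = 0.783). *Cd2ap* was the member whose kidneys lay below the sham range most often, and the only one of the 8 with a lower mean at 5d post-MI than in sham.

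*Magi2* (ENSMUSG00000040003, chr5:19227036-20704792, plus strand) encodes a scaffold protein that binds nephrin's tail. It measured 4.85, 6.31 and 9.48 CPM (lowest, median and highest) in sham kidneys, 5.25, 7.58 and 9.75 CPM at 5d post-MI and 4.30, 6.41 and 8.13 CPM at 28d post-MI. The ranges largely coincided, with 1 kidney at 5d above and 1 at 28d below all sham kidneys. The log2 fold change was 0.22 at 5d (SE 0.17, edgeR adjusted p = 0.800) and −0.01 at 28d (adjusted p = 0.9997), where its sign depended on the fit. In GENCODE M21 the last exon of *Magi2* shares 203 bases with *Gm29254*, a noncoding RNA gene on the same strand with 4 counts over all kidneys. Whether this overlap affected the *Magi2* counts was not tested.

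Of the genes of the apical membrane, *Podxl* and *Clic5* were the most evenly expressed. *Podxl* (ENSMUSG00000025608, chr6:31519488-31563981, minus strand) encodes podocalyxin, the charged sialoprotein that keeps foot processes apart, and endothelial cells express it as well. Its lowest, median and highest levels were 77.4, 89.6 and 104 CPM in sham kidneys, 80.6, 90.5 and 112 CPM at 5d post-MI and 79.0, 90.6 and 110 CPM at 28d post-MI. The 3 ranges nearly coincided, with 2 kidneys at 5d and 1 at 28d above every sham kidney. The log2 fold change was 0.02 at both times (edgeR adjusted p = 0.967 and 0.985). Its 95% interval was −0.12 to 0.17 at 5d and −0.14 to 0.18 at 28d. As folds, these intervals ran from 0.918 to 1.13 at 5d and from 0.905 to 1.13 at 28d.

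*Clic5* (ENSMUSG00000023959, chr17:44188584-44280172, plus strand) encodes a chloride intracellular channel protein that joins ezrin and podocalyxin at the foot process. It measured 32.7, 47.5 and 49.4 CPM in sham kidneys, 37.8, 46.5 and 53.7 CPM at 5d post-MI and 42.5, 46.5 and 53.0 CPM at 28d post-MI (lowest, median and highest). The lowest of all was a sham kidney, and 2 kidneys at each time lay above every sham kidney. Its log2 fold change was 0.01 at 5d (SE 0.08, edgeR adjusted p = 0.989) and 0.09 at 28d (SE 0.09, adjusted p = 0.856).

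*Ptpro* (ENSMUSG00000030223, chr6:137252319-137463233, plus strand) encodes GLEPP1, a receptor tyrosine phosphatase of the apical surface. It varied more than any other member: the lowest, median and highest levels were 3.38, 7.98 and 15.0 CPM in sham kidneys, 5.63, 10.2 and 11.2 CPM at 5d post-MI and 3.37, 8.12 and 10.4 CPM at 28d post-MI. The sham kidneys spanned the range of both MI groups but for 1 kidney at 28d post-MI that lay just below it. The log2 fold change was 0.13 at 5d (SE 0.21, edgeR adjusted p = 0.930) and −0.11 at 28d (SE 0.23, adjusted p = 0.948).

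*Synpo* (ENSMUSG00000043079, chr18:60593973-60660142, minus strand) encodes synaptopodin, which bundles actin in the foot process. Its lowest, median and highest levels were 16.4, 21.7 and 28.8 CPM in sham kidneys, 22, 23.4 and 31.1 CPM at 5d post-MI and 17.9, 23.8 and 27.0 CPM at 28d post-MI. All 8 kidneys at 5d lay above the sham mean of 21.7 CPM, but 7 of them were still within the sham range. The log2 fold change was 0.16 at 5d (SE 0.11, 95% interval −0.06 to 0.38, edgeR adjusted p = 0.768) and 0.05 at 28d (adjusted p = 0.952).

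*Wt1* (ENSMUSG00000016458, chr2:105126529-105173616, plus strand) encodes the zinc finger transcription factor that drives many podocyte genes, and it had the highest fold change of the 8 members at both times. Its lowest, median and highest levels were 5.39, 6.69 and 9.43 CPM in sham kidneys, 6.41, 7.86 and 14.3 CPM at 5d post-MI and 6.75, 9.41 and 11.3 CPM at 28d post-MI. At each time 3 kidneys lay above every sham kidney and none lay below the sham range. Against sham, the log2 fold change was 0.38 at 5d (SE 0.18, 95% interval 0.02 to 0.74, unadjusted p = 0.0365, edgeR adjusted p = 0.593) and 0.38 at 28d (SE 0.20, 95% interval −0.02 to 0.78, adjusted p = 0.590). Both comparisons used the same sham kidneys. At 5d the value was 0.27 without replicate 1 and 0.26 without replicate 2, the kidneys with the highest *Wt1*, and replicate 2 also had the lowest summed level of 9 proximal tubule markers, 33969 CPM against a group median of 55328 CPM. Whether that kidney's low sum of tubule markers has a part in the result was not tested.

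**Figure D2:**
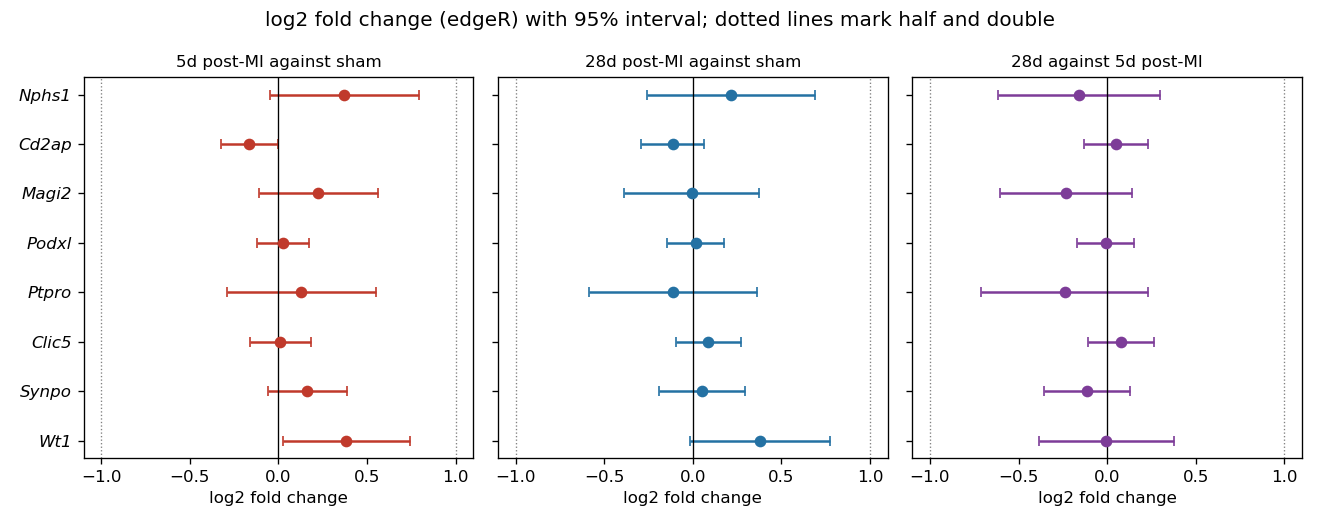
log2 fold change (x axis) of each member in each of the 3 comparisons, 1 per panel, with points for the edgeR estimate, bars for its 95% interval and dotted lines at a log2 of −1 and 1. All 24 intervals lie inside the dotted lines, and only those of *Wt1* and *Cd2ap* at 5d post-MI leave out 0.

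Together, 7 of 8 members had a positive log2 fold change at 5d post-MI (50.1% of all genes did), 5 of 8 had one at 28d (49.6%), and 2 of 8 between the times (48.6%). The count at 5d was 5 to 7 over the other fits, with 5 without sham replicate 2, because the values of *Podxl* and *Clic5* lie near 0 and changed sign in several fits. The medians of the members were 0.15, 0.03 and −0.06, and those of all tested genes were 0.00018, −0.0012 and −0.0046. Their summed level was 214, 248 and 265 CPM (lowest, median and highest) in sham kidneys, 229, 240 and 286 CPM at 5d post-MI and 233, 243 and 262 CPM at 28d post-MI, so that the 3 groups overlapped here too. This sum rests mostly on *Podxl*, *Cd2ap* and *Clic5*, with sham means of 91.8, 60.5 and 44.4 CPM, and says little about the members with lower counts. The highest upper limit of any member's 95% interval was 1.74-fold at 5d and 1.71-fold at 28d against sham, and the lowest lower limit was 0.798-fold and 0.665-fold. Between 28d and 5d post-MI, the test of whether a gene's level differed between the times, the log2 fold changes ran from −0.24 for *Ptpro* to 0.08 for *Clic5*, with edgeR adjusted p-values of 0.784 to 0.998.

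The members differed in how well they could be measured. Mean counts per kidney ran from 15.7 for *Nphs1* and 19.9 for *Magi2* over 25.0 for *Wt1* and for *Ptpro* to 134 for *Clic5*, 168 for *Cd2ap* and 273 for *Podxl*. The coefficient of variation (SD over mean) among kidneys of 1 group was 11.3% for *Podxl*, 12.2% for *Clic5* and 12.3% for *Cd2ap*, but 29.1% for *Nphs1* and 33.1% for *Ptpro*. Counting error alone gives 25.6% for *Nphs1*, and the variance of this gene was 1.43 times that of counting error. For *Magi2* the variance among kidneys was 0.805 times that of counting error, whereas it was 2.43 times for *Ptpro* and 3.51 times for *Podxl*.

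**Figure D3:**
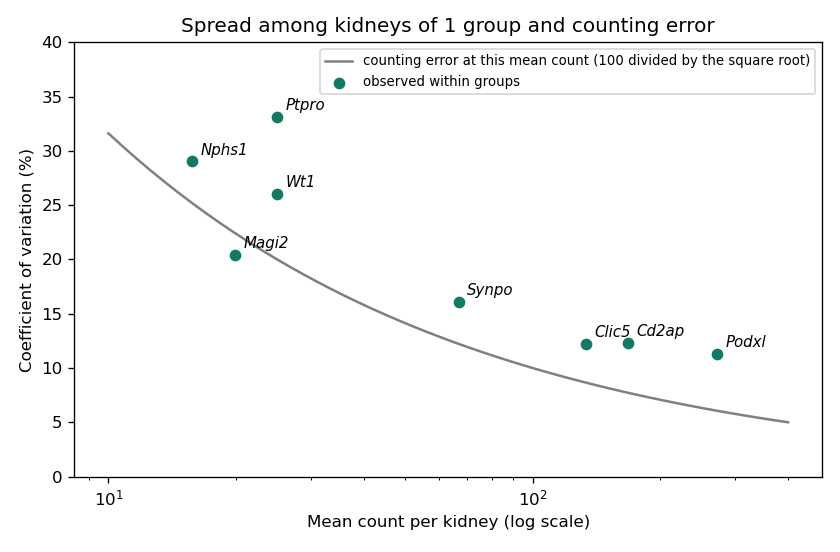
Coefficient of variation within groups in percent (y axis) against the mean count per kidney (x axis, log scale), 1 point for each member. The grey line is the variation from counting error alone, and *Magi2* lies just below it, *Nphs1* just above it, and *Ptpro* and *Podxl* farther above it.

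How far the members varied together from kidney to kidney was examined with the group means taken off. Over the 28 pairs, Pearson's r of log2 CPM across 22 kidneys was between −0.30 and 0.52, with a median of −0.01 and 13 positive values. None had a permutation p under 0.05, and the lowest p adjusted over the 28 pairs was 0.815. The highest r was that of *Wt1* and *Cd2ap* (r = 0.52, permutation p = 0.0582, Spearman's rank correlation = 0.46, permutation p = 0.0642), and it was 0.32 without the 2 kidneys farthest from the median of *Wt1*. For *Synpo* and *Magi2*, r was 0.43 (permutation p = 0.0545) and 0.13 without the 2 kidneys farthest from the median of *Synpo*.

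**Figure D4:**
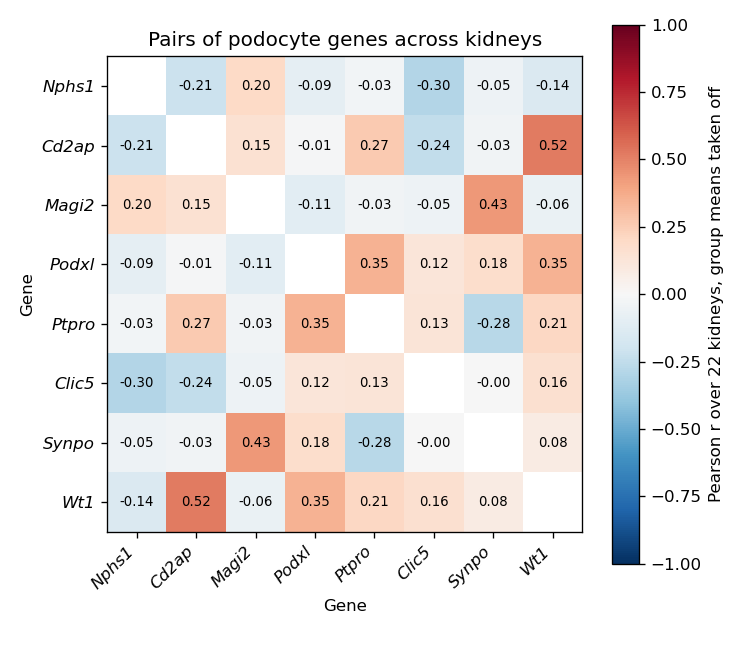
Pearson's r for each pair of members (axes, genes; colour and number, r of log2 CPM over 22 kidneys after the group means were taken off). The highest value is 0.52 for *Wt1* and *Cd2ap*, and 13 of the 28 values are positive.

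The genes most like the members in this variation were ranked by r with the mean of the members' z-scores over 22 kidneys, as a description. No pair of members passed the test above, so this mean is not shown to be a common signal. The r values of this ranking were not tested. The 10 highest of 12772 genes were *Tmem175* (r = 0.73), *Hspa12a*, *Tm4sf1*, *Hoxd8*, *Maged1*, *Casz1*, ENSMUSG00000118499, *Cox6b2*, *Zfp821* and *Slc40a1* (r = 0.66), and none is in the podocyte lists used here. The first gene of those lists was *Foxc2*, a forkhead factor of podocyte development, at rank 170 (r = 0.50), followed by *Thsd7a* at rank 247.

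Other genes of the podocyte were taken from 6 lists by role. The lists were not limited to genes that only podocytes express, so their values in kidney tissue can include other cells. Of 77 genes found, 66 had enough counts, and edgeR called 1 at 5d, 0 at 28d against sham and 1 between the times. At an unadjusted p under 0.05, 5 of 66 were higher and 1 lower at 5d, where 3.92% and 3.97% of all genes were, and 7 of 66 were higher and 1 lower at 28d against sham, where 4.45% and 4.23% of all genes were. The median log2 fold change of the 66 genes was 0.02 at both times, below the 0.15 of the members at 5d, a difference that was not tested. The 11 genes with too few counts included the nephrin relatives *Kirrel2* and *Kirrel3*, the channel gene *Trpc6* and the transcription factor gene *Lmx1b*.

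Of 14 slit diaphragm genes, none was called in any comparison. *Prkci*, the atypical protein kinase C of the polarity complex at the slit, had the lowest p of the list, with 18, 23.6 and 25.5 CPM in sham kidneys and 21.6, 27.0 and 32.2 CPM at 5d post-MI (lowest, median and highest). At 5d 6 of 8 kidneys lay above every sham kidney. Its log2 fold change was 0.24 at 5d (edgeR adjusted p = 0.549) and 0.22 at 28d (adjusted p = 0.563).

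Among 7 genes of the apical coat and its ezrin complex, 3 had an unadjusted p under 0.05 and a higher level at 5d, where 3.92% of all genes did. At 28d against sham, 3 were higher and 1 lower at this limit, where 4.45% and 4.23% of all genes were. None of the 7 was called against sham. *Slc9a3r2*, an adaptor that binds podocalyxin, had log2 fold changes of 0.30 and 0.33 (edgeR adjusted p = 0.444 and 0.364), with 5 of 8 and 4 of 6 kidneys above every sham kidney. *Mme*, which encodes the peptidase neprilysin, had log2 fold changes of 0.24 and 0.28 (adjusted p = 0.366 and 0.267). *Slc9a3r1*, the related adaptor gene, had 0.06 and 0.18 (adjusted p = 0.909 and 0.514). *Mme*, *Slc9a3r1* and *Enpep* are also genes of the proximal tubule brush border, and the 9 proximal tubule markers summed to 49010 to 59496 CPM in sham kidneys, 33969 to 65917 CPM at 5d and 61253 to 69728 CPM at 28d post-MI. Their part in these values was not tested.

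*Enpep*, which encodes aminopeptidase A of podocytes and proximal tubules, was the gene of the 66 called at 28d against 5d post-MI. It measured 77.8, 95.1 and 107 CPM at 5d and 71.5, 74.4 and 81.7 CPM at 28d (lowest, median and highest), against 74.0, 86.8 and 92.1 CPM in sham kidneys. At 28d 4 of 6 kidneys lay below every kidney at 5d. *Enpep* fell by 0.32 on the log2 scale between the times (SE 0.08, edgeR adjusted p = 0.0345). The call was lost in 14 of 32 other fits, among them limma's voom and the fits that left out any of the replicates 2, 5, 8 and 9 at 5d or 2, 3, 4, 6 and 7 at 28d, and its adjusted p ran from 0.00268 to 0.174.

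Of 11 genes of the actin skeleton none was called. *Arhgdia* measured 171 ± 4.20 CPM in 8 sham kidneys and 186 ± 7.63 CPM in 6 kidneys at 28d post-MI (mean ± SD), with 5 of 6 kidneys above every sham kidney and a log2 fold change of 0.12 (edgeR adjusted p = 0.408). Among 8 podocyte transcription factor genes other than *Wt1*, none was called. *Tcf21*, a factor of podocyte and interstitial development, had log2 fold changes of −0.18 at 5d and 0.18 at 28d against sham and 0.36 at 28d against 5d (adjusted p = 0.770, 0.741 and 0.310). None of 12 genes of the glomerular basement membrane, including collagen IV and laminin chains, had an unadjusted p under 0.05 in any comparison, and their log2 fold changes against sham ran from −0.17 to 0.05 at 5d and from −0.18 to 0.06 at 28d.

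The last list held 14 tested genes listed as podocyte markers by other functions. *Sema3g*, which encodes a secreted semaphorin, was the gene called at 5d post-MI, with 7 of 8 kidneys above every sham kidney. It measured 23.5 ± 3.81 CPM under sham and 41.3 ± 7.45 CPM at 5d (mean ± SD, n = 8 each). Its log2 fold change at 5d was 0.81 (edgeR adjusted p = 0.00118). Over 32 other fits the log2 fold change was 0.71 to 0.88, and 31 of them called it. At 28d its log2 fold change was 0.55 (edgeR adjusted p = 0.119). DESeq2, a fit of the 2 groups alone and a fit without the filter on low counts called it there. The paper also reports higher renal *Sema3g* by real-time PCR at the earlier time. In public human kidney single-cell data, the paper found *Sema3g* highest in endothelium of the descending vasa recta, in the medulla. Which cells gave the higher *Sema3g* counts here was not tested. *Vegfa*, the growth factor that podocytes supply to the glomerular endothelium, had log2 fold changes of −0.01 at 5d and 0.16 at 28d (adjusted p = 0.992 and 0.531). *Htra1*, a serine protease gene, had −0.11 and 0.09 (adjusted p = 0.783 and 0.805). *Tmem150c* had −0.44 and −0.46 (adjusted p = 0.622 and 0.599).

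Marker lists named for the other cells of the glomerulus were read beside the members. In RNA of kidney tissue, these sums do not separate cells of the glomerulus from similar cells elsewhere in the kidney. The 10 genes listed for glomerular endothelium, all present in each group, summed to 445 to 530 CPM in sham kidneys (median 492). The sums were 375 to 525 CPM at 5d (median 439) and 456 to 514 CPM at 28d post-MI (median 490). Of these genes 2 of 10 had a positive log2 fold change at 5d, where 50.1% of all genes did, with a median of −0.15. Lower levels with an unadjusted p under 0.05 were seen for 3 of the 10 at 5d, where 3.97% of all genes had them, and none was called. The 8 mesangial genes summed to 184 to 221 CPM in sham kidneys (median 208), 170 to 195 CPM at 5d (median 178) and 163 to 204 CPM at 28d post-MI (median 184). All 8 had a negative log2 fold change at both times, with medians of −0.20 and −0.13, where 50.1% and 49.6% of all genes had a positive one. At 5d 4 of them had an unadjusted p under 0.05 and a lower level, as 3.97% of all genes did, and none was called. The 5 genes of the parietal epithelium summed to 113 to 145, 105 to 153 and 127 to 138 CPM in the 3 groups. The 8 members (7 positive) and the other 66 podocyte genes (36 positive at 5d, with 4 of 12 basement membrane and 4 of 11 actin genes among them) differed in this count themselves, and no difference between lists was tested.

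**Figure D5:**
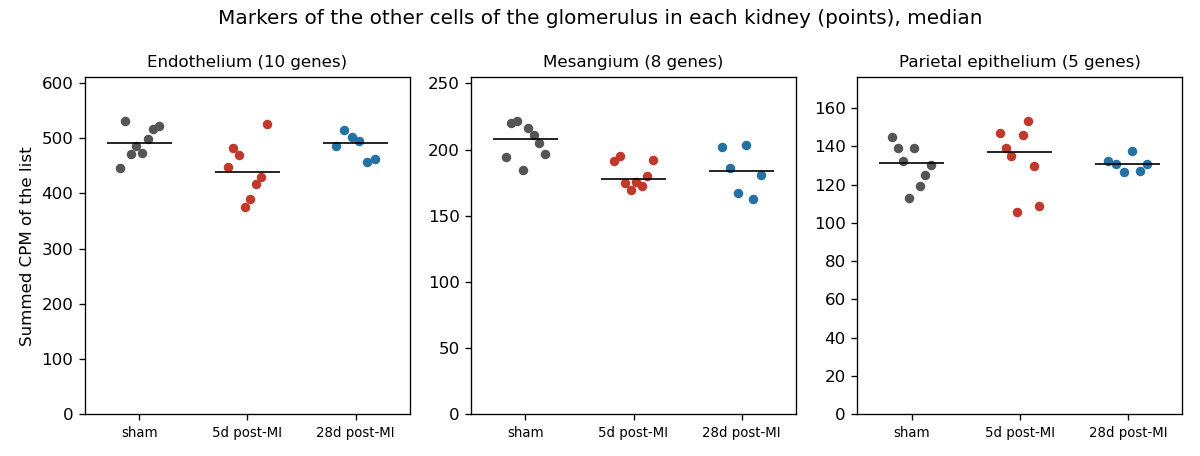
Summed CPM (y axis, from 0) of the marker lists named for glomerular endothelium, mesangium and parietal epithelium in each kidney (points) by group, with the median as a line. The mesangial sums lie between 170 and 195 CPM at 5d post-MI and between 184 and 221 CPM in sham kidneys, and the groups overlap in each panel.

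Tissue outside the glomerulus differed between kidneys as well. Adrenal genes summed to 0.795 to 4.27 CPM in all kidneys but 3, sham replicates 2 and 6 with 966 and 719 CPM and 5d replicate 5 with 84.0 CPM. Without these kidneys no member was called, and the log2 fold changes at 5d were 0.38 for *Wt1*, 0.34 for *Nphs1* and −0.16 for *Cd2ap*. Others moved more, to 0.27 for *Synpo* (0.16 with all kidneys), 0.31 for *Magi2* (0.22) and 0.08 for *Ptpro* (0.13). *Podxl* and *Clic5* stayed near 0, at 0.035 and −0.046. Red blood cell genes summed to 2200 to 4124 CPM in sham kidneys and 4968 to 19089 CPM at 5d, adipocyte genes to 263 to 1360 CPM in sham kidneys and 260 to 717 CPM at 28d, and medulla genes to 2118 to 3222 CPM in sham kidneys and 2329 to 3515 CPM at 5d post-MI. With the medulla genes as a covariate, the log2 fold change at 5d was 0.40 for *Wt1* and −0.15 for *Cd2ap*. The part of blood and fat in the members' values was not tested.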

How the data were processed

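RNA of kidney tissue was read by MACE, a 3′-end method with molecular identifiers. The authors trimmed reads with Cutadapt and counted them on genes with HTSeq. The methods name the mm10 build and the submitters' processing notes mm39 and Bowtie2, the annotation and strand setting are not given in the sources used here, and coordinates are those of GENCODE M21 on GRCm38. The authors deposited whole-number counts without normalization, and values they name TPM, which are counts scaled to each kidney's total (CPM) and were not used. Of 48 value columns, 4 share a name between a kidney at 5d and one at 28d post-MI and were not used.

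Genes were filtered with filterByExpr (minimum 10 counts), scaled by TMM and fitted with edgeR 4.0.16 in R 4.3.3 (robust quasi-likelihood F test, two-sided, 3 groups, no covariate). Genes were called at a Benjamini-Hochberg adjusted p under 0.05. Alternatives were other size factors, no filter, DESeq2 1.42.0, voom in limma 3.58.1, other designs and leaving out each kidney. Pairs were tested with 100000 permutations within groups. Symbols came from GENCODE M21 for 51948 of 56941 identifiers. Total counts of 2280618 to 3786275 set the counting error.

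The members, gene lists and tests were chosen with earlier results of these data known. Named are all members, up to 4 genes of each podocyte list that were called or had an unadjusted p under 0.05, and the 10 genes most like the members. Not every gene of the slit diaphragm is reported here.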

Additional observations from a re-analysis of the deposited data

Results flagged for a closer look

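Dixon's test at the 95% level was applied to each member in each of the 3 groups, 24 sets in all, of which chance alone flags about 1 in 20. It marked 4 high kidneys. *Nphs1* was 10.7 CPM in 5d replicate 9, where the next kidney of the group had 6.35 CPM. *Synpo* was 31.1 CPM in 5d replicate 2, where the next had 24.1 CPM. *Cd2ap* was 71.2 CPM in sham replicate 3, where the next had 60.9 CPM. *Magi2* was 9.48 CPM in sham replicate 6, where the next had 6.63 CPM, and this is 1 of the 3 kidneys with adrenal genes. The 4 values come from 4 different kidneys.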

How the results depend on the processing

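No member was called in any of 33 fits, and the lowest adjusted p of a member was 0.430. Of the 24 log2 fold changes, 14 kept their sign in all fits, among them those of *Wt1*, *Nphs1* and *Cd2ap* against sham at both times. No pairing of kidneys by replicate number was seen. Over 18 pairs of kidneys with the same number, deviations from the group means correlated at −0.127 to 0.0899. Over 142 pairs with other numbers they correlated at −0.211 to 0.222. Such low values do not show that the numbers carry no pairing. With the replicate number as a block, the log2 fold change was −0.014 for *Podxl* at 5d and −3.19e-05 at 28d against sham, and 0.13 for *Nphs1*, 0.014 for *Podxl* and −0.043 for *Cd2ap* at 28d against 5d, and 0 of the 66 other podocyte genes were called at 5d and 0 at 28d against 5d (adjusted p of *Sema3g* at 5d 0.0622, with a log2 fold change of 0.71 to 0.88 over all 32 other fits). *Clic5* at 5d was −0.0086 with the medulla score as a covariate and −0.046 without the kidneys with adrenal genes, an alternative chosen after seeing the data, as was DESeq2 on 2 groups. *Magi2* at 28d against sham was 0.10 without the kidneys with adrenal genes and 0.0055 with voom. *Wt1* at 28d against 5d was 0.043 with voom and 0.0012 with DESeq2 on all kidneys and on 2 groups.

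At 28d against sham, other podocyte genes called were 2 without the filter (*Sema3g* and *Mme*) and 1 (*Sema3g*) with 2 groups only, with DESeq2 on all kidneys and with DESeq2 on 2 groups. At 28d against 5d, 0 were called when not robust, with 2 groups only, with voom and without the kidneys with adrenal genes, and 0 to 1 when 1 kidney was left out. The cause was not tested.

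Leaving out 1 kidney at a time gave ranges of −0.017 to 0.053 for *Podxl* and −0.039 to 0.045 for *Clic5* at 5d. At 28d against sham they were −0.040 to 0.059 for *Podxl*, −0.0043 to 0.12 for *Synpo*, −0.22 to 0.042 for *Ptpro* and −0.084 to 0.086 for *Magi2*. At 28d against 5d they were −0.26 to 0.023 for *Nphs1*, −0.064 to 0.033 for *Podxl* and −0.072 to 0.12 for *Wt1*. Over all genes, calls depended on the filter and tool: without the filter 80, 94 and 160 genes were called against 9, 3 and 53, and with DESeq2 36, 33 and 91. *Nphs1*, *Magi2*, *Wt1* and *Ptpro* had means of 15.7 to 25.0 counts a kidney, where counting error alone gives a coefficient of variation of 20.3% to 25.6%, and the spread among kidneys came on top of it for *Wt1* (26.1% in all) and *Ptpro* (33.1%).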
